A study of Homo sapiens with 10 samples.

Results

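The genes described here are 8 enzymes of arginine, proline, glutamine and asparagine metabolism, ASS1, ASL, ARG2, OAT, ALDH18A1, PYCR1, GLUL and ASNS, out of 61533 genes in the count tables. They were chosen by name and selected on the count differences between the 2 lines, with earlier results of that comparison in view, so these differences are given as a description without a test. The libraries are RNA-seq of the human bladder cancer line T24 and of T24R2, a line made from it by repeated exposure to cisplatin, a DNA-crosslinking drug. Each line gave 5 libraries, all taken on day 3 of culture in RPMI with fetal bovine serum, and no allele was engineered in either. The study's methods state that T24R2 was kept in medium with cisplatin, while the labels name the same drug-free medium for both lines, so the derived line and its drug exposure cannot be told apart. T24R2 is a single derived line, and nothing in the labels says that the 5 libraries of a line came from separate cultures. The p-values below therefore measure the spread between these libraries, which may be technical.

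Arginine is made from citrulline and aspartate by argininosuccinate synthase (ASS1) followed by argininosuccinate lyase (ASL), and cells that lack ASS1 depend on arginine taken up from outside. Arginase splits arginine into urea and ornithine, and ornithine aminotransferase (OAT) joins ornithine to the glutamate semialdehyde pool, from which proline is made. The same pool is filled from glutamate by ALDH18A1, and PYCR1 takes the last step to proline. Glutamine and asparagine are made from glutamate and aspartate by GLUL and ASNS. Loss of ASS1 is a well-known feature of several tumour types, bladder cancer among them.

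Total counts were 9257843 to 10840954 fragments per library, and replicate libraries differed by more than counting error in all 20 pairs of the same line. Of 16181 genes that passed the filter on low counts, 8309 (51.4%) were called between the lines, 4027 (24.9%) higher and 4282 (26.5%) lower in T24R2. A gene was called when the Benjamini-Hochberg adjusted p of edgeR's quasi-likelihood test was under 0.05 and the absolute log2 fold change over 0.5. The labelled cell type was only partly visible in its markers. Of 6 epithelial genes, 5 reached 1 CPM in T24 and 3 in T24R2, with CDH1 near 0 in both, and their sum ran from 4835 to 5568 CPM in T24 and from 2988 to 3187 CPM in T24R2. KRT7, KRT8 and KRT18, keratins of simple epithelium, were high in both lines but called lower in T24R2 (log2 fold change -0.71, -0.61 and -0.69). KRT19, the other keratin of the 6, fell from a mean of 267 to 0.0887 CPM, and EPCAM from 4.45 to 0.130 CPM. Of 9 urothelial markers, 4 reached 1 CPM (counts scaled to a common library size by TMM) in T24 and 3 in T24R2. UPK2, GATA3, FOXA1 and PPARG were all called lower in T24R2, GATA3 from 22.1 to 0.214 CPM. UPK1A, UPK1B, UPK3A, KRT5 and KRT20 stayed under 1 CPM in both. The summed urothelial markers ran from 173 to 180 CPM in T24 and from 39.2 to 47.2 CPM in T24R2. Of the markers of other cells, 0 of 3 immune and 0 of 3 fibroblast genes reached 1 CPM in either line. The endothelial list, with 2 of 3 genes at 1 CPM in T24 and 1 of 3 in T24R2, summed to 225 to 278 CPM in T24 and 1.60 to 2.50 CPM in T24R2. Most of the T24 sum was CDH5, with a mean of 239 CPM in T24 and 0.559 CPM in T24R2. The part of these line differences in the results below was not tested, and in bulk RNA fewer cells that express a gene cannot be told apart from less RNA per cell.

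All 8 genes passed the filter on low counts. By the same thresholds, 5 of the 8 stood lower in T24R2 (background 26.5%), 1 stood higher (background 24.9%) and 2 did neither. The genes were chosen with results of this comparison in view, so these counts say nothing further about them. The values of the lines did not overlap for 6 genes. The share of all genes without overlap was not computed, but 12212 of the 16181 tested genes had an edgeR adjusted p under 0.05. That is a different measure, so the 6 genes have no background here and are not read as a result about the members. ASS1 and ALDH18A1 stood furthest apart, PYCR1, ARG2 and GLUL were lower by less, ASNS was higher on very few counts, and ASL and OAT had overlapping values.

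**Figure D1:**
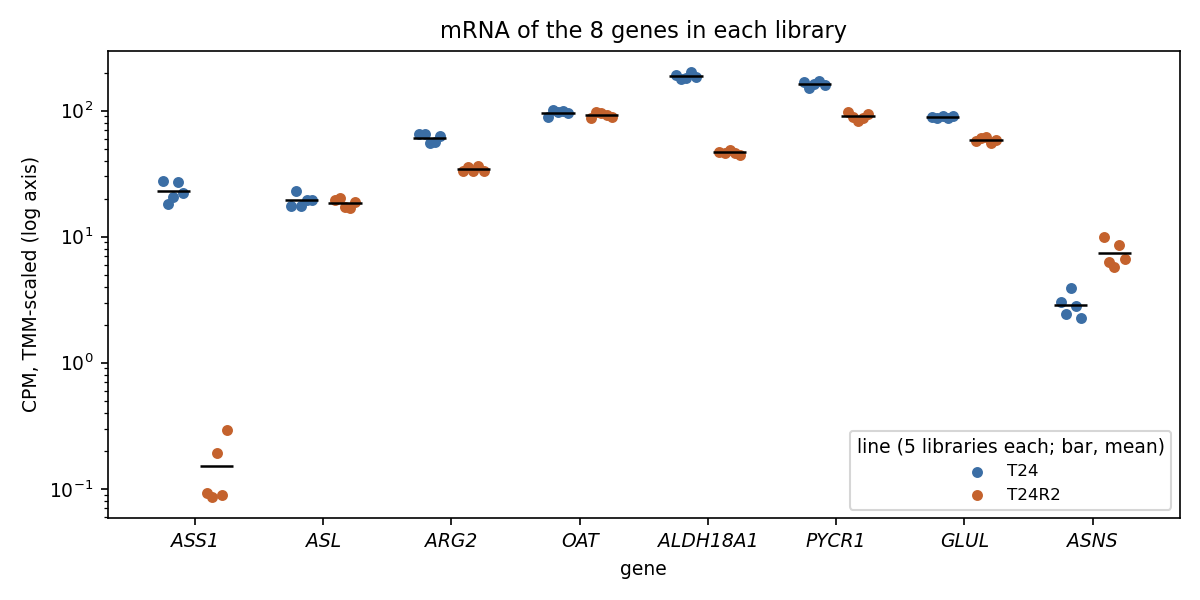
Level of each of the 8 genes in the 5 T24 (blue) and 5 T24R2 (orange) libraries, in TMM-scaled CPM on a log axis, with a bar at each mean; CPM is not divided by gene length, so heights compare lines and not genes. ASS1 drops from 18.2 to 27.4 CPM in T24 to at most 0.295 CPM in T24R2, while the points of ASL and OAT overlap between the lines.

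ASS1, the enzyme that condenses citrulline with aspartate, lies on chr9:130444961-130501274 of hg38, plus strand. It had 27.4, 18.2, 20.8, 27.3 and 22.2 CPM in T24 replicates 1 to 5, and 0.0918, 0.0867, 0.192, 0.0891 and 0.295 CPM in T24R2 replicates 1 to 5. Every T24 library held at least 173 fragments of the gene and no T24R2 library more than 3, so ASS1 mRNA was close to the limit of detection in the resistant line. Summed over libraries, 1079 fragments were counted in T24 and 8 in T24R2. At equal depth the T24R2 level was 0.635% of that in T24, with an exact 95% counting interval of 0.273% to 1.26%, and the T24 level was 158-fold higher (79.7-fold to 366-fold). These intervals cover counting error only. The fitted log2 fold change of -7.18 rests on the prior count of the fit and is not a bound. No other annotated gene covers ASS1 exons. The human genome carries many processed copies of ASS1, and the 14 ASS1 pseudogenes in the tables held 14 fragments in all T24 libraries together and 28 in all T24R2 libraries, with at most 5 in any library. Reads that fit ASS1 and a copy equally well were removed by the authors' step for unique alignments, in both lines alike.

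ASL, which releases arginine and fumarate from argininosuccinate (chr7:66075800-66094697, plus strand), did not follow ASS1. Its levels were 17.5, 22.9, 17.6, 19.6 and 19.5 CPM in T24 and 19.5, 20.4, 17.3, 16.8 and 18.8 CPM in T24R2. The lines overlapped, and the log2 fold change was -0.07 ± 0.10 (SE, n = 5 per line). Of the ASL canonical transcript, 73.7% of exon bases lie on no other gene of its strand, and fragments on the rest could be counted for neither gene. Per unit of length, in TPM, ASS1 stood at 2.43 ± 0.58 times ASL in T24 (SD, n = 5) and at 0.0164 ± 0.0100 times ASL in T24R2. The length is that of all annotated exons, 3018 bases for ASS1 and 6031 for ASL, against 1532 and 2140 in the canonical transcripts. Without division by length, the T24 means were 23.2 and 19.4 CPM, so the ratio of 2.43 depends on the annotated lengths.

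ARG2, the mitochondrial arginase (chr14:67619920-67651708, plus strand), had 65.1, 65.4, 54.96, 55.8 and 63.4 CPM in T24 and 33.1, 35.7, 33.2, 36.1 and 33.4 CPM in T24R2. All T24R2 libraries were below all T24 libraries, with a log2 fold change of -0.83 ± 0.07 (SE). On the opposite strand, VTI1B, a gene for a vesicle SNARE protein, covers 39.6% of ARG2 exon bases, and its own log2 fold change was -0.26 ± 0.05. The library kit is not described as one that marks strand, so fragments of the shared bases cannot be assigned to either gene with certainty. With the density of VTI1B subtracted over the shared bases, a calculation chosen after the data were seen, the log2 fold change of ARG2 was -1.08.

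OAT, which turns ornithine into glutamate semialdehyde in mitochondria (chr10:124397303-124418976, minus strand), had 89.6, 100.7, 98.0, 98.4 and 95.9 CPM in T24 and 87.3, 97.1, 94.9, 92.8 and 88.8 CPM in T24R2. The ranges overlapped, with a log2 fold change of -0.07 ± 0.05 (SE). OAT and ARG2 act in succession on arginine carbon. OAT stood at 1.08 ± 0.12 times ARG2 in TPM in T24, where their ranges overlapped, and at 1.81 ± 0.07 times ARG2 in T24R2.

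ALDH18A1, also called P5CS, makes glutamate semialdehyde from glutamate and so opens the proline route (chr10:95605941-95656711, minus strand). Its levels were 192, 177, 183, 202 and 186 CPM in T24 and 47.3, 46.1, 49.0, 45.8 and 44.3 CPM in T24R2. The lowest T24 library was well above the highest T24R2 library, and the T24R2 mean was 24.7% of the T24 mean, a log2 fold change of -2.01 ± 0.05 (SE). No other gene shares its exons. The TPM ratio of OAT to ALDH18A1, the enzymes that supply the same pool from ornithine and from glutamate, was 0.571 ± 0.044 in T24 and 2.20 ± 0.11 in T24R2.

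PYCR1, the mitochondrial reductase that forms proline (chr17:81932384-81942412, minus strand), had 169, 152, 163, 173 and 160 CPM in T24 and 97.2, 89.3, 83.4, 87.8 and 94.4 CPM in T24R2, again with every T24R2 library below every T24 library. The log2 fold change was -0.85 ± 0.05 (SE). MYADML2 shares 14.1% of PYCR1 exon bases on the same strand, none of them in the canonical transcript, and held at most 3 fragments in a library. A gene of 450 bases known only by its identifier, ENSG00000263585, lies wholly inside PYCR1 exons on the opposite strand. It was counted at 551 to 701 fragments per T24 library and 293 to 469 per T24R2 library, with a log2 fold change of -0.87 ± 0.08, and at 1321 fragments per kilobase against 612 for PYCR1 in T24. Without a strand-marking kit, fragments of the pair cannot be told apart. ALDH18A1 stood at 0.884 ± 0.017 times PYCR1 in TPM in T24 and at 0.397 ± 0.035 times PYCR1 in T24R2.

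GLUL, glutamine synthetase (chr1:182378098-182392206, minus strand), had the tightest replicates of the 8 in T24 as a share of its mean, at 89.6, 87.6, 89.8, 87.1 and 91.0 CPM, and 57.6, 61.1, 61.5, 55.5 and 58.3 CPM in T24R2. The lines did not overlap, with a log2 fold change of -0.60 ± 0.05 (SE). GLUL is the member just inside the threshold of 0.5, and without scaling of the library sizes its value was -0.43. No member lay just outside it, the next being ASL at -0.07 and OAT at -0.07.

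ASNS, asparagine synthetase (chr7:97851677-97872542, minus strand), is the exception in direction and the least securely counted. It had 3.01, 2.42, 3.89, 2.80 and 2.27 CPM in T24 and 10.0, 6.33, 5.76, 8.55 and 6.59 CPM in T24R2. All T24R2 libraries were above all T24 libraries, on 21 to 34 counted fragments in a T24 library and 60 to 109 in a T24R2 library, and the log2 fold change was 1.37 ± 0.20 (SE). A second gene on the same strand, ENSG00000284707, shares 2415 exon bases with ASNS. Fragments on bases that 2 genes of a strand share are given to neither in these tables, and only 11 of the 2385 exon bases of the ASNS canonical transcript (0.461%) lie outside the second gene. The deposited ASNS counts thus come from exon bases of other ASNS transcripts, and the level of its main mRNA was not measured here. ENSG00000284707 itself held 0 to 2 fragments per T24 library and 2 to 10 per T24R2 library.

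**Figure D2:**
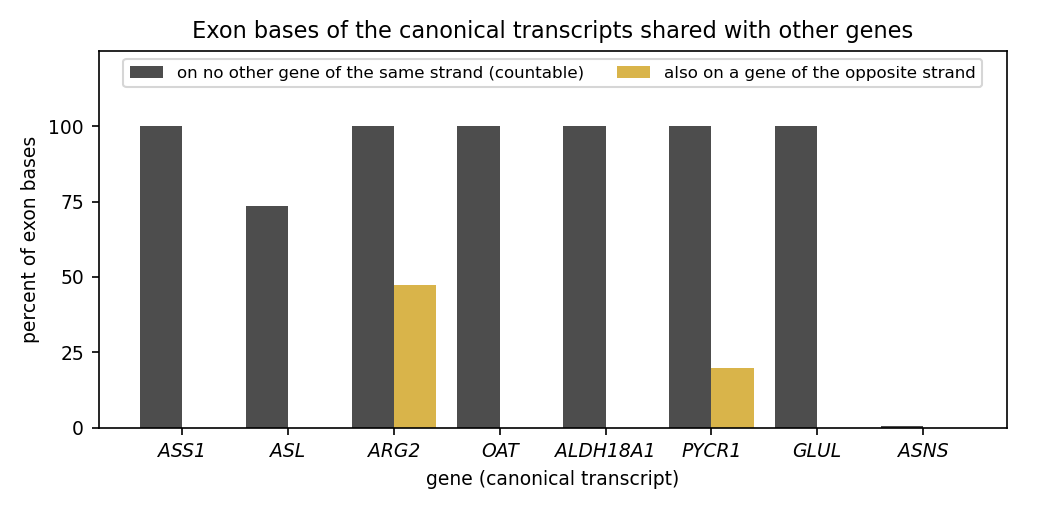
Percent of the exon bases of each gene's canonical transcript that lie on no other gene of the same strand (dark bars), and percent that also lie on a gene of the opposite strand (yellow bars). ASNS has 0.461% countable bases and ASL 73.7%, and opposite-strand genes cover part of ARG2 and PYCR1.

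Levels between genes were compared in TPM, which divides by the length of all annotated exons of a gene, so the order depends on the annotation. In T24 the order ran from PYCR1 (174 ± 10.4, SD, n = 5) and ALDH18A1 (154 ± 9.39) through OAT (87.5 ± 4.29), ARG2 (81.8 ± 5.96), ASS1 (23.6 ± 4.25), GLUL (21.6 ± 0.56) and ASL (9.89 ± 1.05) to ASNS (1.80 ± 0.41). Neighbours in that order whose libraries overlapped were PYCR1 with ALDH18A1, OAT with ARG2, and ASS1 with GLUL. In T24R2 the order was PYCR1 (112 ± 6.89), OAT (97.5 ± 4.72), ARG2 (53.9 ± 2.73), ALDH18A1 (44.4 ± 1.29), GLUL (16.7 ± 0.71), ASL (11.03 ± 0.92), ASNS (5.45 ± 1.27) and ASS1 (0.179 ± 0.110), and only PYCR1 and OAT overlapped. ASS1 moved from the fifth place to the last, and ALDH18A1 from the second to the fourth. The overlaps depend on the scale. In CPM divided by the same length, PYCR1 and OAT did not overlap in T24R2. With same-strand shared bases left out of the length, PYCR1 and ALDH18A1 did not overlap in T24, and only ASL and ASNS overlapped in T24R2. The place of ASNS is not that of its main mRNA, which was hardly countable.

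Promoter sequences of the members, from 250 bases before to 50 bases after the start of transcription, were taken from RefSeq (GRCh38.p14) and matched 7 of the 8 genes by symbol. PYCR1 was not matched. Both strands were searched for TGATGNAA, the composite element read by ATF4 with C/EBP factors, for the E-box CACGTG, read by MYC-type factors, and for TGACNNNGC, the core of the antioxidant response element. Over all 35116 windows, these letters occurred in 3.62%, 7.26% and 13.3%. These shares are per window, whereas ASS1, GLUL and ASNS had 2 windows each and the other matched genes 1. The hits are shown in windows of 30 bases, 5′ to 3′ on the strand of the gene, to place each match relative to its gene, with the motif in capitals. They belong to ASNS, ASS1, ALDH18A1 and OAT, and a link between the motifs and the line differences was not tested. The ASNS element (chr7:97872458-97872487, minus strand, 68 bases before the start and within a 5′ exon of longer annotated transcripts) is the amino acid response element for which this gene is known. The ASS1 window (chr9:130444878-130444907, plus strand) and the ALDH18A1 window (chr10:95656830-95656859, minus strand) lie before the annotated genes, and the OAT window (chr10:124418874-124418903, minus strand) lies in the first exon, with its motif on the opposite strand.
ASNS, TGATGNAA: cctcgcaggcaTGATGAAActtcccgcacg
ASS1, E-box: gcgcgtccccgcCACGTGtccccggtcacc
ALDH18A1, E-box: gggctggcccgcCACGTGgagcgctggctt
OAT, TGACNNNGC: cgtgtacccggttgtcctcagGCGCTGTCA
The E-box reads the same on both strands. ASS1 and ALDH18A1 each hold it once, at 71 and 136 bases before the start. No motif of the 3 was found in the windows of ASL, ARG2 and GLUL. A match shows only that these letters are present, and binding was not measured here.

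The other genes of the same pathways were taken from 4 lists of 64 genes. Of these, 46 passed the filter on low counts, 15 rose in T24R2, 9 fell and 22 were not called. The called share of 52.2% is close to the background of 51.4%, and the median log2 fold change was 0.18 against 0.01 over all tested genes, so the pathways as lists were called about as often as the rest of the transcriptome.

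**Figure D3:**
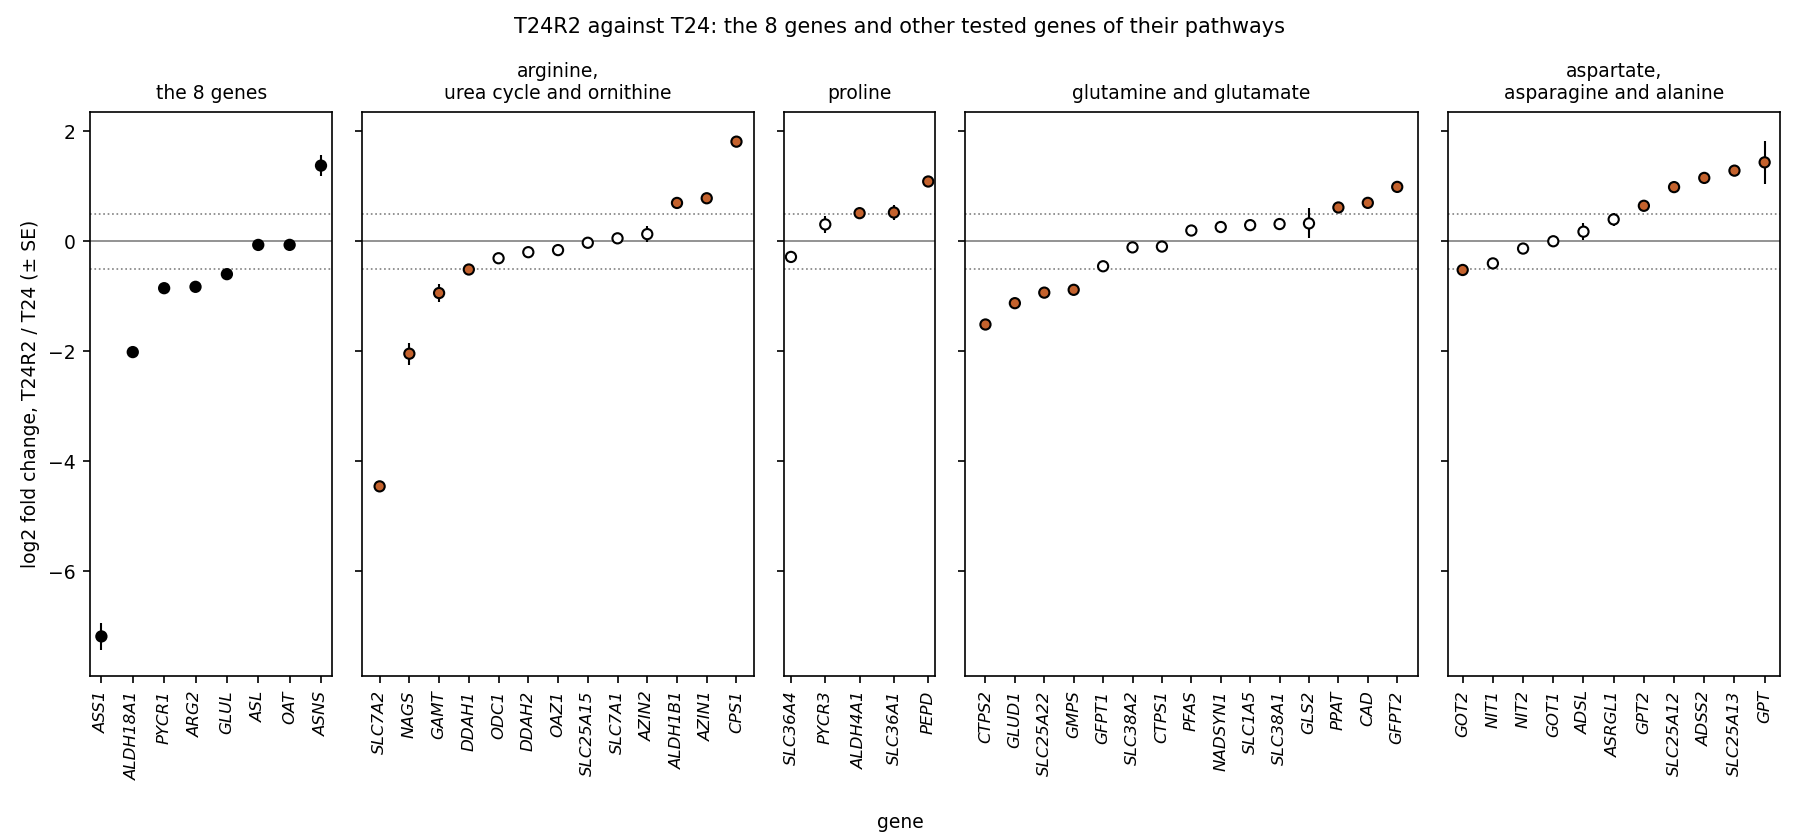
Log2 fold change of T24R2 over T24, with its SE, for the 8 genes (black, no test) and for 44 of the 46 other tested genes of the 4 pathway lists; filled orange points passed both thresholds, open points did not, and dotted lines mark 0.5 in each direction. ASS1 at -7.18 and SLC7A2 at -4.45 are the lowest, and CPS1 at 1.81 is the highest.

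In the arginine, urea cycle and ornithine list, 13 of 22 genes were tested, 3 rose, 4 fell and 6 were not called. SLC7A2, a carrier that brings arginine and other cationic amino acids into the cell, fell from 203 to 260 CPM in T24 to 9.02 to 11.3 CPM in T24R2 (log2 fold change -4.45 ± 0.07, edgeR adjusted p = 3.54e-37). SLC7A1, the widely expressed carrier of the same family, had 145 ± 8.72 CPM in T24 and 151 ± 6.67 CPM in T24R2 (SD, n = 5), and its difference of 0.05 ± 0.05 on the log2 scale did not pass the test (edgeR adjusted p = 0.326). The lines did not overlap for SLC7A2, and they overlapped for SLC7A1. CPS1, which makes carbamoyl phosphate from ammonia in mitochondria, rose from 15.998 ± 1.77 to 56.1 ± 4.23 CPM (log2 fold change 1.81 ± 0.08, edgeR adjusted p = 3.5e-22). NAGS, whose product activates CPS1, fell from 11.2 ± 2.22 to 2.71 ± 1.16 CPM (-2.04 ± 0.20, edgeR adjusted p = 5.36e-12). GAMT, which completes creatine, fell by 0.94 on the log2 scale. OTC, the step between CPS1 and ASS1 in the hepatic cycle, had 0 counts in every library. ODC1, which takes ornithine into polyamines, differed by -0.31 ± 0.05 and did not reach the fold threshold, and NOS3, a nitric oxide synthase, never exceeded 3 counts in a library.

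The proline list leaves out the members ALDH18A1 and PYCR1, which both stood lower in T24R2. Of the 10 genes in this list, 6 were tested, 3 rose, 0 fell and 3 were not called by edgeR. Over all tested genes, 24.9% rose and 26.5% fell. At an unadjusted p under 0.05, 1 gene of the list was lower, SLC36A4 (-0.29 ± 0.08). It also passed the adjusted threshold (edgeR adjusted p = 0.00211) and missed only the fold threshold. DESeq2 and limma-voom also called 0 genes lower. PEPD, the dipeptidase that frees proline from peptides, rose from 40.6 ± 5.33 to 86.2 ± 3.77 CPM (log2 fold change 1.09 ± 0.07, edgeR adjusted p = 1.36e-17). ALDH4A1, which finishes proline breakdown, rose by a log2 fold change of 0.51 ± 0.09 and the carrier SLC36A1 by 0.52 ± 0.13. Both stood near the fold threshold, and leaving out single libraries took ALDH4A1 as low as 0.47 and SLC36A1 as low as 0.46, under it. PYCR3, a cytosolic paralog of PYCR1, had 8.11 ± 1.52 CPM in T24 and 10.1 ± 2.32 CPM in T24R2 and was not called (0.31 ± 0.15). The TPM of PYCR1 was 28.4 ± 6.14 times that of PYCR3 in T24 and 12.8 ± 3.03 times in T24R2. PRODH, the first enzyme of proline breakdown, was nearly absent from the counts, at 0.0838 and 0.0960 CPM.

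In the glutamine and glutamate list, 16 of 18 genes were tested, 4 rose, 4 fell and 8 were not called. GLUD1, the mitochondrial glutamate dehydrogenase, fell from 268 ± 11.1 to 123 ± 3.29 CPM (-1.13 ± 0.05, edgeR adjusted p = 6.02e-24), with the reservation that it shares sequence with close copies. SLC25A22, a mitochondrial glutamate carrier, fell by 0.93 on the log2 scale. Of the 9 enzymes of the list that use the glutamine amide group, 3 rose, 2 fell and 4 (CTPS1, GFPT1, PFAS and NADSYN1) were not called. CTPS2 (CTP synthesis) fell by 1.51 and GMPS (GMP synthesis) by 0.88, while GFPT2 (hexosamine synthesis) rose by 0.99, CAD (pyrimidine synthesis) by 0.70 and PPAT (purine synthesis) by 0.61. The carrier SLC1A5, with 210 ± 2.68 and 257 ± 13.1 CPM, differed by 0.29 ± 0.04 and did not reach the fold threshold.

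In the aspartate, asparagine and alanine list, 11 of 14 genes were tested, 5 rose, 1 fell and 5 were not called. Aspartate is the second substrate of ASS1 and the precursor of asparagine. Both mitochondrial aspartate-glutamate carriers rose, SLC25A12 from 18.2 ± 2.75 to 36.1 ± 4.99 CPM (log2 fold change 0.98 ± 0.10, edgeR adjusted p = 1.15e-11) and SLC25A13 from 19.5 ± 2.79 to 47.4 ± 1.01 CPM (1.28 ± 0.08, edgeR adjusted p = 2.67e-17). ADSS2, which uses aspartate to make AMP, rose from 47.4 ± 3.35 to 105 ± 5.25 CPM (1.15 ± 0.06). GPT, an alanine aminotransferase, was called on 26 fragments or fewer per library with overlapping lines (1.43 ± 0.39). The mitochondrial aspartate aminotransferase GOT2 fell from 220 ± 15.6 to 153 ± 7.14 CPM (-0.52 ± 0.05), just past the fold threshold, and was -0.36 without scaling. Its cytosolic counterpart GOT1 had 48.3 ± 4.67 and 48.3 ± 1.58 CPM.

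The tested genes beside each member on its chromosome were described next, since position was not used to choose the members. Around ASS1, the median log2 fold change of 10 genes, 5 on each side, was -0.38 with a range from -2.03 to 4.29, and 5 fell and 1 rose (background 26.5% and 24.9%). With 20 neighbours, 7 fell and 3 rose, the median was 0.07 and the lowest value -5.81, beside the fitted -7.18 of ASS1. Around ALDH18A1, 5 of 10 neighbours fell and 0 rose by edgeR, with a median of -0.67, while 1 was higher at an unadjusted p under 0.05 and DESeq2 and limma-voom also called 0 higher. ZNF518A, a zinc-finger gene there named after its values were seen, had 12.9 CPM in T24 and no fragment in the 5 T24R2 libraries. Around PYCR1, 6 of 10 neighbours fell and 1 rose within 0.133 Mb, with a median of -0.91 beside the -0.85 of PYCR1, although ENSG00000263585 is among the 6. With 20 neighbours, 9 fell and 1 rose around ALDH18A1 (median -0.47), and 10 fell and 3 rose around PYCR1 (median -0.51). For ASL, ARG2, OAT, GLUL and ASNS the medians of 10 neighbours were 0.46, -0.14, -0.33, 0.09 and 0.31. With 20 neighbours, 8 fell and 2 rose around OAT (median -0.38), whose own values overlapped between the lines. Around ASNS 4 of 20 fell and 8 rose, around ASL 4 fell and 4 rose. Around ARG2 4 of 20 fell and 0 rose by edgeR, and around GLUL 7 fell and 5 rose. SLC25A13, described above, is among the 10 neighbours of ASNS.

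**Figure D4:**
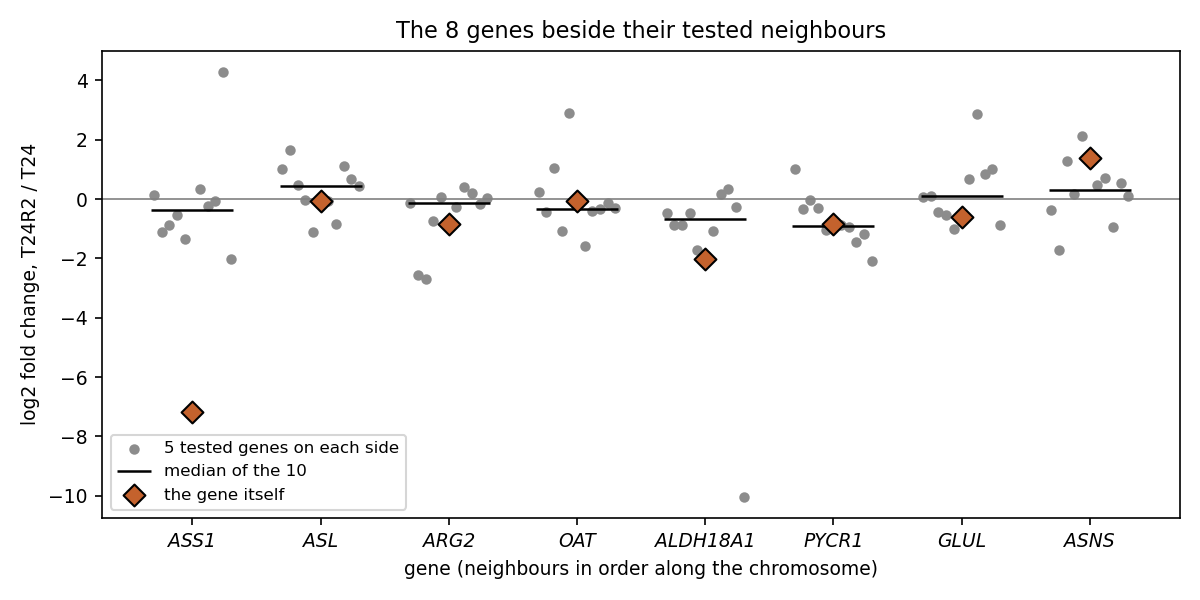
Log2 fold change of T24R2 over T24 for each of the 8 genes (orange diamonds) and for the 5 nearest tested genes on each side of it (grey points, in chromosome order), with a bar at the median of the 10. ASS1 lies below all 10 of its neighbours shown, and PYCR1 lies close to the median of its own, -0.91.

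Among the 3 tested genes whose log2 CPM profile over the 10 libraries was most like that of ASS1, by the root mean square difference of mean-centred values with a prior count of 2, were PADI2 and CYP24A1. Their differences from ASS1 were 0.252 and 0.256 on the log2 scale. PADI2, which converts arginine residues of proteins to citrulline, had 12.6 ± 2.57 CPM in T24 and 0 fragments in every T24R2 library. CYP24A1, which inactivates vitamin D, had 16.3 ± 2.74 CPM in T24 and at most 1 fragment per T24R2 library. The likeness rests on how near-zero counts are treated, since with a prior count of 0.5 the nearest genes were HSPG2, PTPN6 and HAS2.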

How the data were processed

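RNA-seq libraries of T24 and T24R2 (5 each) were analysed. The authors aligned reads to hg38 with STAR 2.7.0, removed duplicates and multiply mapped reads in SAMtools 1.10, and ran featureCounts 2.0.1 in strand mode 1 over GENCODE 39. What they deposited are raw counts of fragments for each gene in each library, neither normalized nor pooled. Fragments on bases of 2 genes of a strand were counted for neither. The study's MeRIP-seq data were not analysed here. Symbols were found for 61369 of 61533 gene identifiers, and 0 rows lacked an identifier.

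Counts were tested for all genes with edgeR 4.0.16 (TMM, filterByExpr, quasi-likelihood test, Benjamini-Hochberg adjustment) in R 4.3.3, after testing the script on simulated counts. CPM values are TMM-scaled. Each SE of a log2 fold change was derived from edgeR's test, as the absolute log2 fold change over the square root of its F statistic. The thresholds (0.05 for the adjusted p, 0.5 for the absolute log2 fold change) follow the study's methods. Exon overlaps were found with bedtools 2.31.1, with canonical transcripts of GENCODE 44. Alternatives were DESeq2 1.42.0 with and without shrinkage, limma 3.58.1 (voom), other scalings, filters and thresholds, leaving out each library, a replicate block, and genes with overlaps left out.

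The members and lists were chosen with earlier results of these data known. Named genes were the 8 members, up to 4 called genes with the largest changes and at least 1 CPM in a line from each list, set counterparts of the members, overlapping genes, and the 3 genes most like ASS1, of which 1 is not reported here, like 2 genes of the lists beyond their part in the counts. Named in addition, after their values were seen, were the other glutamine amide enzymes, SLC36A4, OTC, ZNF518A and the stress response genes.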

Additional observations from a re-analysis of the deposited data

Results flagged for a closer look

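In 2 of 80 groups of 5 libraries examined for a single library far from the others, where chance gives 4.0, a library of T24R2 stood apart. PRODH was at 0.480 CPM in T24R2 replicate 3 and at 0 in the other 4 libraries of the line. NOS3 was at 0.0891 CPM in T24R2 replicate 4 and at 0 in the other 4. Both genes had failed the filter on low counts, and the values rest on at most 5 fragments and 1 fragment. Where 4 libraries are at 0, any fragment in the remaining library sets it apart, so the comparison with 4.0 is no guide here.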

How the results depend on the processing

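Over 152 alternative values of the 8 genes' log2 fold changes, 140 moved by less than 1 SD, 12 moved further and 0 reversed a called direction. Without scaling, which shifts the median of all genes from 0.01 to 0.18, the values were 0.10 for ASL, -0.66 for ARG2, 0.10 for OAT, -1.85 for ALDH18A1, -0.69 for PYCR1 and -0.43 for GLUL, so that ASL and OAT changed sign and GLUL fell under the threshold. Upper-quartile scaling gave 0.0081 for OAT, -1.94 for ALDH18A1 and -0.52 for GLUL. DESeq2 with shrinkage gave -6.10 for ASS1, and leaving out single libraries gave -7.52 to -7.03, the lowest without T24R2 replicate 5. Subtracting VTI1B gave -1.08 for ARG2.

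With an absolute log2 fold change over 1, 2 members were lower, 5 pathway genes were higher and 4 lower, and 4211 of all genes were called. With a mean of at least 100 counts, 0 members were higher, because ASNS was removed by the filter. Among the fewer genes then tested, 5 pathway genes were lower and 4991 genes were called. Leaving out genes with opposite-strand overlaps left 3 members lower, because ARG2 and PYCR1 were removed, and leaving out same-strand overlaps left 4 lower and 0 higher, because PYCR1 and ASNS were removed. Leaving out 1 library gave 12 to 16 pathway genes higher and 8 to 10 lower. Libraries of the 2 lines share replicate numbers, but deviations of same-numbered libraries correlated at only 0.00201 to 0.0596 over 5 pairs. Only 1 of 5 T24 libraries correlated best with its own number. No pairing by number was visible, although such correlations cannot exclude a small effect shared by same-numbered libraries. With a replicate block, 8240 genes were called, 15 pathway genes rose and 9 fell, ASS1 was at -7.18 and ASNS at 1.37. Depth limits ASS1 in T24R2, where 1 to 3 fragments stand for a library.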

Other observations

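The amino acid stress response, which induces ASNS when amino acids run short, was followed in 15 other genes, all of which were tested. Of these, 8 (53.3%) rose in T24R2 and 0 fell by edgeR, beside 24.9% and 26.5% of all tested genes. The list was chosen with earlier results of these data known and holds SLC7A11, which the paper reports as increased in T24R2. These shares are therefore a description, and an enrichment was not tested. At an unadjusted p under 0.05, 2 genes were lower, ATF4 and EIF2AK4. Both also passed the adjusted threshold (edgeR adjusted p = 3.45e-11 and 7.42e-06) and missed only the fold threshold. DESeq2 and limma-voom also called 0 lower. SLC7A11, the cystine carrier, had 57.8 ± 5.79 CPM in T24 and 481 ± 31.4 CPM in T24R2 (SD, n = 5; log2 fold change 3.06). The serine synthesis enzymes PSAT1 and PHGDH rose by log2 fold changes of 1.9997 and 1.27, and SESN2, a leucine sensor, by 1.72. SLC3A2, CHAC1, SLC7A5 and PPP1R15A rose by 0.98, 0.76, 0.73 and 0.60. ATF4, the transcription factor of the response, was at 533 ± 27.8 CPM in T24 and 397 ± 20.3 CPM in T24R2, a log2 fold change of -0.43 that did not reach the fold threshold. The other 6 genes (ATF3, DDIT3, TRIB3, DDIT4, EIF2AK3 and EIF2AK4) were not called either, with log2 fold changes from -0.29 to 0.12.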
